A study of Mus musculus with 12 samples.

Results

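The response of BV2 cells to 1 h of lipopolysaccharide (LPS) was measured by setting 3 arrays of LPS-treated cells against 3 arrays of vehicle-treated cells, out of 12 arrays in the series. BV2 is an immortalised mouse microglial line, labelled wild type, that stands in for the resident macrophages of the brain. Vehicle cells received 1.5% DMSO for 3 h, and LPS cells received the same vehicle for 2 h and then LPS for 1 h. Neither group received a drug, all groups carried the 1.5% DMSO, and no source used here gives the dose of LPS. The other 6 arrays, 3 of cells given telmisartan alone for 3 h and 3 of cells given telmisartan for 2 h before 1 h of LPS, were used to estimate the spread and as a second LPS comparison in cells that also held the drug. All 22180 genes with a single platform symbol were members, out of 41345 array features. Values are log2 RMA signals (array intensities after background correction, quantile normalization and probe summarisation). The labels call the samples of a group independent without tying an array to a culture, so the p-values rest on differences among these arrays, which may be technical.

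LPS, a component of the outer membrane of Gram-negative bacteria, is sensed by the receptor TLR4, which signals through the adaptor MyD88 to the transcription factors NF-kB and AP-1 and through the adaptor TRIF to interferon regulatory factors. Genes that need no new protein synthesis are transcribed first, among them cytokines, transcription factors and the inhibitors that later end the response. Interferon-dependent genes form a later wave in macrophages and microglia.

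The cells carried markers of microglia and macrophages, in a list that covers both and does not tell them apart. The 34 measured homeostatic microglia genes had a median DMSO level of 5.29, against 4.42 for all genes. Of 12 microglia and macrophage markers, 11 had a mean of at least 6 on the 6 arrays compared, with a median of 9.84 over the markers, whereas 0 of the 28 markers of astrocytes, neurons, oligodendrocytes, fibroblasts, endothelial cells and lymphocytes reached 6. The ranges of each set's mean level in the DMSO and LPS arrays overlapped or touched, and the mean of the microglial markers was between 9.46 and 9.51 in DMSO and between 9.48 and 9.51 in LPS. The medians of the arrays ran from 4.08 to 4.13, and pairs of arrays correlated at 0.995 to 0.9974. The first principal component (20.3% of the variance) placed the 6 arrays with LPS on one side and the 6 without on the other. Telmisartan+LPS replicate 3 stood apart on the second component (13.2%), at 20.18 where the other arrays lay between -9.78 and 6.83.

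After 1 h, 84 genes rose and 11 fell at a limma adjusted p under 0.05 (Benjamini-Hochberg over all 22180 genes), which is 0.379% and 0.0496% of the genes tested. At an unadjusted p under 0.05 there were 908 higher and 1093 lower genes. The DMSO and LPS arrays did not overlap for any of the 95 called genes, where 6.28% of all genes had every LPS array above every DMSO array and 9.42% had every LPS array below. The genes were called on the difference between these same arrays, so the lack of overlap follows largely from the call. Cytokines and chemokines accounted for 15 of the rises and 5 of the 6 that exceeded 2 log2 units, namely Cxcl2, Il1b, Il6, Cxcl10 and Il1a. The other 69 rises, which are described below by class, held 1 gene above 2 log2 units, 17 between 1 and 2, 36 between 0.5 and 1, and 15 under 0.5. The cytokine list shares members with these classes, and its rises Tnfsf9, Csf1, Lif, Ccl5 and Ccl7 are counted in them too. The classes were drawn up with earlier results of these data known, so the shares of called members are a description of these lists. The falls were smaller, with 4 of 11 at or beyond 0.5 log2 units.

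**Figure D1:**
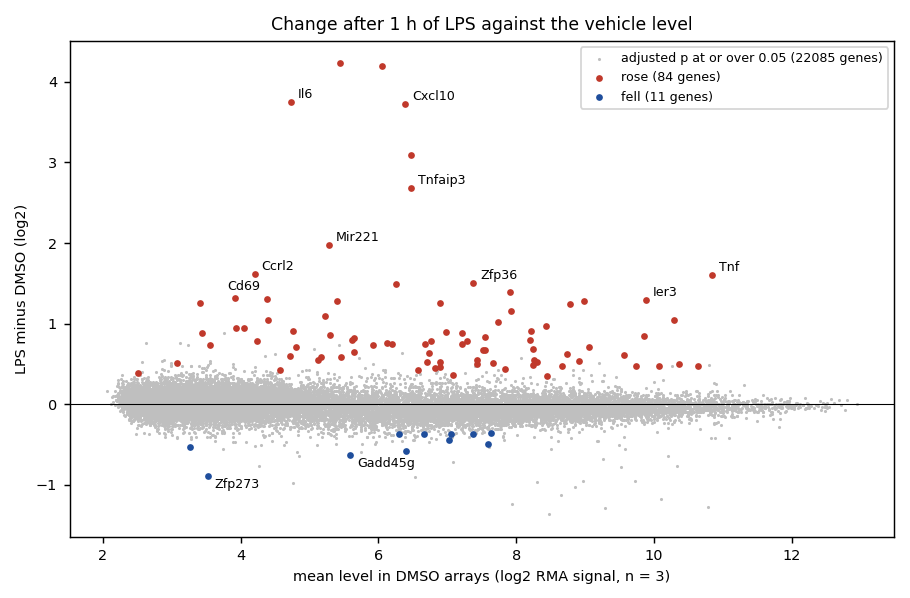
Each point is 1 of 22180 genes, with its mean log2 RMA signal in the 3 DMSO arrays on the x axis and its log2 change, LPS minus DMSO, on the y axis. The 84 rises (red) reach 4.23 and the 11 falls (blue) reach -0.89, and grey points as low as -1.36 are genes that did not pass the threshold.

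The largest rise outside the cytokines was that of Tnfaip3, which encodes A20, a ubiquitin-editing enzyme that shuts down NF-kB signalling. Its level was 6.36, 6.57 and 6.48 in the DMSO arrays and 9.11, 9.12 and 9.23 in the LPS arrays. The change was 2.68 (SE 0.08), or 6.42-fold (limma adjusted p = 4.45e-10). The lowest LPS array lay far above the highest DMSO array. Its proximal promoter is shown because it is the largest rise outside the cytokines with an entry in the promoter table. In the RefSeq promoter table (GRCm38.p6) the upstream of 2 listed starts of Tnfaip3 lies at chr10:19015361-19015660, minus strand. Its 300 bases hold 2 matches to the kappaB consensus and a TATAAA element, printed in capitals. The window of the other listed start, not printed, holds neither.
Tnfaip3: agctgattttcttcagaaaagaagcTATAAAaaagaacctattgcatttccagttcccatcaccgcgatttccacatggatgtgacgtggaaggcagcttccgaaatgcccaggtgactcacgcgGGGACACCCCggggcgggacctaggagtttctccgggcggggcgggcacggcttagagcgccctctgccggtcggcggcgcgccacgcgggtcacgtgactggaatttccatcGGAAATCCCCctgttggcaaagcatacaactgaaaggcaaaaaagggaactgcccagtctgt

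Other regulators of the ubiquitin chains that carry the NF-kB signal rose too. Of 24 measured genes of this class 5 rose and 0 fell, a share of 20.8%, with a list median of 0.053 against -0.007 for all genes. Tnip3, an A20-binding inhibitor, rose by 1.02 (SE 0.14, limma adjusted p = 0.00404). Traf1, an adaptor of TNF receptors, rose by 0.65 (SE 0.10), Birc3, a ubiquitin ligase of the same receptor complexes, by 0.46 (SE 0.08), and Peli1, a ligase that modifies IRAK kinases, by 0.35 (SE 0.06), with limma adjusted p = 0.00632, 0.0221 and 0.021 in that order. The kinase gene Map3k8 (Tpl2) was at 0.35 and the linear-chain deubiquitinase gene Otulin at -0.20, neither past the threshold (limma adjusted p = 0.191 and 0.456).

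Of 11 measured genes for NF-kB subunits and IkB proteins 3 rose and 0 fell (27.3%, median 0.14). Nfkbiz, a nuclear IkB protein that licenses a subset of NF-kB targets, was at 7.83, 8.0 and 7.89 in DMSO and at 9.27, 9.27 and 9.35 in LPS, a change of 1.39 (SE 0.07, limma adjusted p = 6.55e-07). Nfkbia (IkB alpha), the main cytoplasmic inhibitor, went from 10.2, 10.34 and 10.36 to 11.29, 11.31 and 11.41, a change of 1.04 (SE 0.07, limma adjusted p = 1.71e-06). Nfkbie (IkB epsilon) rose by 0.91 (SE 0.14, limma adjusted p = 0.00635) from a level of 4.76 ± 0.18 (SD, n = 3). The subunit genes were at 0.42 for Rel, 0.32 for Relb, 0.14 for Rela and -0.01 for Nfkb2, with limma adjusted p = 0.0705, 0.298, 0.688 and 0.988. The other IkB-type genes were at 0.14 for Bcl3, 0.04 for Nfkbib, -0.02 for Nfkbil1 and -0.07 for Nfkbid, with limma adjusted p = 0.618, 0.894, 0.978 and 0.82. Rel passed the threshold in 5 of 21 alternative settings.

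The receptor gene Ccrl2, which encodes an atypical chemoattractant receptor that binds chemerin, had the next largest rise of a protein-coding gene outside the cytokines. It was at 4.14, 4.22 and 4.25 in DMSO and at 5.94, 5.73 and 5.80 in LPS, a change of 1.62 (SE 0.10), or 3.07-fold (limma adjusted p = 1.34e-06). Its promoter is shown because it is the next largest rise with an entry in the promoter table. The furthest upstream of the 3 starts in the RefSeq table lies at chr9:111057469-111057768, minus strand, and holds 1 match to the kappaB consensus, in capitals, and no TATAAA. The windows of the other listed starts, not printed, hold neither.
Ccrl2: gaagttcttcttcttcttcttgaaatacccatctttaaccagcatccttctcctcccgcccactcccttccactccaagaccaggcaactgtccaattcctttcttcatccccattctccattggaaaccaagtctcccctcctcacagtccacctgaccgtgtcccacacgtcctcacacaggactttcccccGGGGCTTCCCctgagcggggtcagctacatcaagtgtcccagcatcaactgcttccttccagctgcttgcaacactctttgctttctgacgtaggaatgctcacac

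Of the 38 measured G protein-coupled receptor and RGS genes 3 rose (7.89%), and the list median of -0.005 was close to that of all genes. Besides Ccrl2 these were Gpr84, a receptor for medium-chain fatty acids, at 0.91 (SE 0.08, limma adjusted p = 7.04e-05) and Ptger4, a prostaglandin E2 receptor, at 0.53 (SE 0.08, limma adjusted p = 0.00672). Rgs1 and C5ar1 were at 0.48 and 0.42 and did not pass (limma adjusted p = 0.153 and 0.109), and Rgs18 was at -0.39 (limma adjusted p = 0.076). Ptgs2, the cyclooxygenase that supplies the prostaglandin ligand, rose by 1.24 (SE 0.13, limma adjusted p = 0.000288). Ptafr, the receptor for platelet-activating factor, which was in no list, rose by 0.80 (SE 0.12, limma adjusted p = 0.00632).

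**Figure D2:**
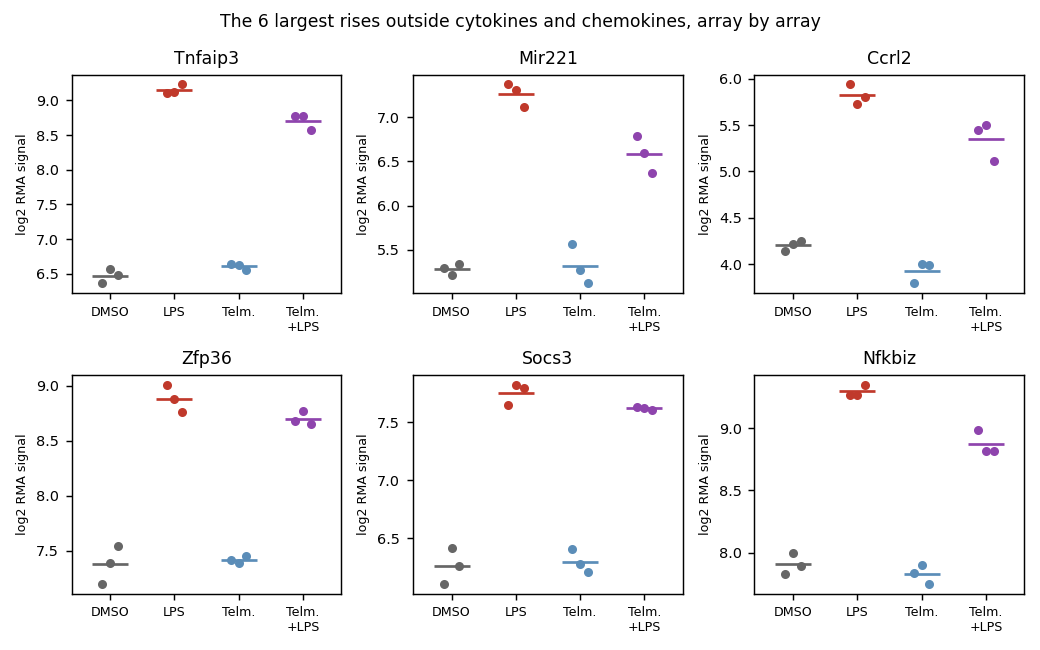
Points are single arrays and bars are the mean of 3 arrays, in log2 RMA signal, for the 6 largest rises outside the cytokine and chemokine list. In each panel the 3 LPS arrays lie above the 3 DMSO arrays, and the 3 telmisartan+LPS arrays lie above the 3 telmisartan arrays. The y axes do not start at 0 and differ between panels.

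Genes for factors that shorten the life of inflammatory mRNAs were also among the rises. Of 24 measured mRNA decay and deadenylation genes 4 rose and 0 fell (16.7%, median 0.038). Zfp36 (tristetraprolin), which binds AU-rich elements and recruits the deadenylase, was at 7.2, 7.39 and 7.54 in DMSO and at 9.01, 8.88 and 8.76 in LPS, a change of 1.51 (SE 0.09, limma adjusted p = 1.02e-06). The deadenylase cofactor Btg2 rose by 1.10 (SE 0.12), its relative Btg1 by 0.42 (SE 0.07), and Zc3h12c, a member of the Regnase family of RNA-binding proteins, by 0.54 (SE 0.07), with limma adjusted p = 0.000312, 0.00923 and 0.00202. The 20 members without a call lay between -0.22 and 0.12. The lowest were the decapping enzyme gene Dcp2 at -0.22 and the deadenylase subunit genes Cnot8 at -0.20 and Pan2 at -0.18 (limma adjusted p = 0.46, 0.503 and 0.494).

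Feedback inhibitors of kinase and cytokine receptor signalling were also among the rises. Of 29 MAPK phosphatase and receptor tyrosine kinase feedback genes 3 rose (10.3%, median 0.12). Dusp1, a nuclear phosphatase of p38 and JNK, rose by 0.88 (SE 0.11), Rasgef1b, an exchange factor for Ras-family GTPases, by 0.80 (SE 0.11), and Dusp2, a second nuclear phosphatase, by 0.51 (SE 0.08), with limma adjusted p = 0.00171, 0.00221 and 0.0102. Of 18 cytokine receptor feedback inhibitors, 1 rose (5.56%, median -0.002). This was Socs3, which blocks JAK kinases at cytokine receptors, and it went from 6.11, 6.42 and 6.26 in DMSO to 7.65, 7.82 and 7.79 in LPS, a change of 1.49 (SE 0.09, limma adjusted p = 8.21e-07). A dimmer feature of Socs3 was at 0.08. Il1rn, the interleukin-1 receptor antagonist, and Irak3, a kinase-dead IRAK, were at 0.32 and 0.33 and did not pass (limma adjusted p = 0.18 and 0.342).

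Of 42 measured immediate early transcription factor genes 5 rose and 0 fell (11.9%), 31 were higher, and the median was 0.132. Myc rose by 0.82 (SE 0.12), Egr2 by 0.71 (SE 0.11), the AP-1 subunits Junb by 0.69 (SE 0.10) and Jun by 0.67 (SE 0.08), and the Krueppel-like factor Klf6 by 0.61 (SE 0.08), with limma adjusted p = 0.00635, 0.00803, 0.00481, 0.00164 and 0.00181. Jun was at 7.48, 7.58 and 7.58 in DMSO and at 8.24, 8.17 and 8.24 in LPS. The list's most familiar members, picked out here after their values were seen, were at 0.20 for Fos, 0.08 for Fosb, 0.03 for Egr1, 0.16 for Nr4a1 and 0.11 for Ier2, with limma adjusted p = 0.553, 0.909, 0.944, 0.674 and 0.772. Atf3, a stress-induced repressor of Toll-like receptor targets, was at 0.36 and passed in 4 of 21 alternative settings (limma adjusted p = 0.0656 as reported). Prdm1 (Blimp-1), a repressor outside the list, rose by 0.95 (SE 0.12, limma adjusted p = 0.00202).

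Among 478 measured microRNA genes 3 rose and 0 fell. The share that rose was 0.628%, against 0.379% of all genes tested, and the family median was 0.02. Mir221 was at 5.30, 5.21 and 5.34 in DMSO and at 7.37, 7.31 and 7.12 in LPS, a change of 1.98 (SE 0.12), or 3.95-fold (limma adjusted p = 1.22e-06). Mir222 was at 4.25, 4.65 and 4.23 in DMSO and at 5.75, 5.78 and 5.54 in LPS, a change of 1.31 (SE 0.17, limma adjusted p = 0.00202). The groups of both genes stood well apart. Mir221 and Mir222 are neighbours on the minus strand of chromosome X, with 504 bases between their hairpins at chrX:19146294-19146388 and chrX:19146893-19146971 (RefSeq, GRCm38.p6), and their 3p products are known repressors of the cell cycle inhibitor gene Cdkn1b. Mir329, on the plus strand of chromosome 12 at chr12:109713481-109713577, went from 4.69, 4.54 and 4.91 to 5.42, 5.22 and 5.30, a change of 0.60 (SE 0.11, limma adjusted p = 0.0212), and kept its call in 7 of 12 fits with 1 array left out. Mir3475, the other large change of the family, was at 0.74 and did not pass (limma adjusted p = 0.175). The array feature is assigned to the gene, and mature and precursor RNA cannot be told apart from it.

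The mature products of these genes are shown to compare their seeds, bases 2 to 8 from the 5′ end, which are in capitals. The 3p products of Mir221 and Mir222 have the same seed, GCUACAU, and the products of Mir329 and Mir3475 have others.
mmu-miR-221-3p: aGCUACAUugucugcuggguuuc
mmu-miR-222-3p: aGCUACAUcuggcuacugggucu
mmu-miR-221-5p: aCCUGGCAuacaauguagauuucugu
mmu-miR-329-3p: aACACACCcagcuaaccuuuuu
mmu-miR-329-5p: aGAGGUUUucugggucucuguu
mmu-miR-3475-5p: aAAUCAUGuacccccacagagg
mmu-miR-3475-3p: uCUGGAGGcacaugguuugaa
Of the 31 microRNA genes known from macrophage activation, Mir221 and Mir222 were the 2 that rose (6.45%, median 0.06). Mir146 was at 0.28, Mir181b-1 at -0.26 and Mir27a at -0.44, none past the threshold (limma adjusted p = 0.589, 0.573 and 0.202).

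Surface molecules of adhesion and co-stimulation had the most rises of the classes outside the cytokines, 8 of 34 (23.5%, median 0.083), and 0 fell. Cd69, a C-type lectin that retains activated leukocytes in tissue, was at 4.07, 3.84 and 3.81 in DMSO and at 5.31, 5.10 and 5.26 in LPS, a change of 1.32 (SE 0.15, limma adjusted p = 0.000494). The checkpoint ligand gene Cd274 (PD-L1) rose by 0.90 (SE 0.08), the lipoprotein scavenger receptor gene Olr1 by 0.88 (SE 0.15), the co-stimulatory ligand gene Tnfsf9 by 0.78 (SE 0.10) and Cd83 by 0.59 (SE 0.08), with limma adjusted p = 8.57e-05, 0.0171, 0.00169 and 0.00184. Icam1, the ligand of leukocyte integrins, rose by 0.55 (SE 0.06), the mycobacterial glycolipid receptor gene Clec4e by 0.50 (SE 0.07) and the TNF receptor gene Tnfrsf1b by 0.48 (SE 0.07), with limma adjusted p = 0.000679, 0.00255 and 0.00297. Clec2d, a lectin outside the list that serves as a ligand of an inhibitory natural killer cell receptor, rose by 1.28 (SE 0.12, limma adjusted p = 7.04e-05). Cd40 and Itga5 were at 0.33 and 0.37 and Tnfsf14 at -0.36, with limma adjusted p = 0.291, 0.121 and 0.547.

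Survival and death genes held both rises and a fall. Of 29 measured, 4 rose (13.8%) and 1 fell, with a median of 0.08. Ier3, an early anti-apoptotic gene, was at 9.74, 9.97 and 9.96 in DMSO and at 11.18, 11.2 and 11.17 in LPS, a change of 1.29 (SE 0.10, limma adjusted p = 1.75e-05). The survival kinase gene Pim1 rose by 1.16 (SE 0.08) and Cflar, the inhibitor of caspase-8 at death receptors, by 0.67 (SE 0.07), while the death receptor gene Fas rose by 1.04 (SE 0.10), with limma adjusted p = 3.17e-06, 0.000493 and 7.75e-05. A dimmer feature of Pim1 was at -0.0. The member that fell was Gadd45g, described below with the falls. Phlda1 was at 0.69 and passed in 6 of 21 alternative settings (limma adjusted p = 0.076 as reported).

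Metabolic enzymes and transporters known from LPS-treated macrophages had 4 rises among 34 genes (11.8%, median 0.05). Acod1, the mitochondrial enzyme that makes itaconate, was at 8.96, 9.0 and 8.99 in DMSO and at 10.25, 10.2 and 10.35 in LPS, a change of 1.28 (SE 0.08, limma adjusted p = 1.22e-06). Besides Ptgs2, the lysosomal glucose transporter family gene Slc2a6 rose by 0.53 (SE 0.07) and the cystine transporter gene Slc7a11 by 0.74 (SE 0.14), with limma adjusted p = 0.00283 and 0.0441. The call of Slc7a11 held in 1 of 12 fits with 1 array left out, and a dimmer feature of the gene was at 0.15. Arg1 was at 0.24 and Hdc at 0.30, neither past the threshold (limma adjusted p = 0.442 and 0.4).

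The list of vesicle, cytoskeleton and migration genes, which also holds phosphodiesterase genes, had 5 rises among 33 (15.2%, median 0.113). No member had all its LPS arrays below its DMSO arrays, against 9.42% of all genes. The cyclic AMP phosphodiesterase gene Pde4b rose by 0.95 (SE 0.10), Marcks and Marcksl1, which encode membrane-bound actin regulators and protein kinase C substrates, by 0.64 (SE 0.12) and 0.55 (SE 0.08), the exocyst-like gene Tnfaip2 by 0.50 (SE 0.08) and the Cdc42 effector gene Cdc42ep4 by 0.43 (SE 0.07). The limma adjusted p was 0.000411, 0.0256, 0.00406, 0.00997 and 0.0193 in that order, and the call of Marcks held in 6 of 12 fits with 1 array left out. Growth factors, proteases and matrix genes had 3 rises among 33 (9.09%, median 0.097). The macrophage growth factor gene Csf1 rose by 0.63 (SE 0.08), the interleukin-6 family ligand gene Lif by 0.59 (SE 0.08) and the secreted metalloprotease gene Adamts1 by 0.78 (SE 0.10), with limma adjusted p = 0.00202, 0.00202 and 0.00186. The coagulation initiator gene F3 was at 0.60 and did not pass (limma adjusted p = 0.105).

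Of 33 secondary and interferon-dependent LPS genes 4 rose (12.1%, median 0.063), which were the antiviral gene Rsad2 at 0.75 (SE 0.09), the chemokine genes Ccl5 at 0.75 (SE 0.11) and Ccl7 at 0.71 (SE 0.10), and Lif. The limma adjusted p was 0.000926 for Rsad2, 0.00445 for Ccl5 and 0.00439 for Ccl7. The interferon gene Ifnb1 was at 2.91 ± 0.16 (SD, n = 3) in DMSO and 3.17 ± 0.40 (SD, n = 3) in LPS, a change of 0.27 (limma adjusted p = 0.653). Isg15 was at 0.33 and Ifit3 at -0.37 (limma adjusted p = 0.354 and 0.346). Of 16 interferon regulatory factor and STAT genes, Irf1 alone rose, by 0.86 (SE 0.11, limma adjusted p = 0.00133), and 12 of the 16 were lower, with a list median of -0.027 and Irf7 at -0.31 (limma adjusted p = 0.332).

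Of the 84 rises, 20 belonged to no list. Nlrp3, the sensor of the inflammasome that matures interleukin-1 beta, was at 6.90, 6.84 and 6.97 in DMSO and at 8.21, 8.10 and 8.19 in LPS, a change of 1.26 (SE 0.08, limma adjusted p = 1.22e-06). Slfn2, a Schlafen gene tied to quiescence and survival of immune cells, rose by 0.97 (SE 0.07), the inward rectifier potassium channel gene Kcnj2 by 0.84 (SE 0.09), the ubiquitin ligase gene Trim13 by 0.76 (SE 0.10) and Ifi207, of the interferon-inducible DNA sensor family, by 0.75 (SE 0.11), with limma adjusted p = 5.29e-06, 0.000407, 0.00202 and 0.00406. The lipopeptide receptor gene Tlr2 rose by 0.53, the immunometabolic enzyme gene Lacc1 by 0.49, the oxidase subunit gene Cybb, the immunoglobulin superfamily gene Igsf6 and the kinase gene Plk2 each by 0.47, the stress response gene Nupr1 by 0.45, the protease inhibitor gene Slpi by 0.44, and Irak2, a kinase of the MyD88 complex, by 0.37. Tcim and Retnlg rose by 0.55 and 0.39, and a dimmer feature of Tcim was at 0.11. The calls of Tcim, Lacc1, Retnlg and Irak2 were lost in most fits with 1 array left out and held in 3, 4, 2 and 2 of 12.

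**Figure D3:**
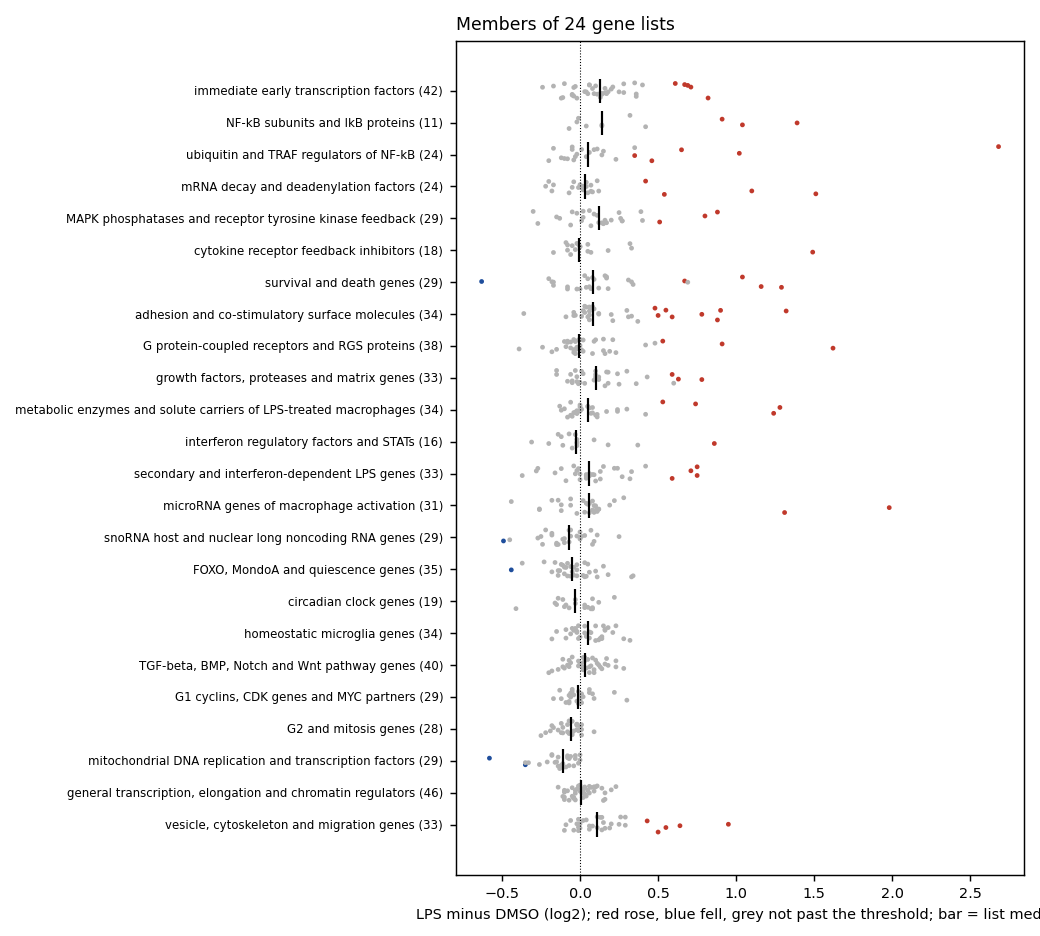
Each point is a gene placed by its log2 change, LPS minus DMSO, in 1 of 24 lists (measured members in brackets). Vertical bars mark list medians, red points rose and blue points fell, and the medians stay between -0.107 and 0.14 while single rises reach 2.68.

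Larger shares of the rises and of the falls than of all genes held the kappaB consensus in their promoters, which was not tested. Of the 84 rises 69 had an entry in the RefSeq promoter table. Of these 15 (21.7%) held the consensus on either strand in at least 1 listed 300-base window. The share was 5.14% of all 27025 genes in the table and 5.54% of those tested on the array. Outside the cytokine list the count of rises was 11 of 60 (18.3%), namely Ccrl2, Ier3, Irf1, Lacc1, Nfkbia, Nfkbie, Nlrp3, Pde4b, Tlr2, Tnfaip3 and Tnip3. Of the falls 2 of 10 (20.0%) held it, Mrm3 and Polg2. The CArG box, the site of serum response factor, was held by 2 rises, Egr2 and Zfp36, with 2 matches each. That is 2.9%, against 1.81% of all genes in the table and 1.67% of those tested on the array. GGGCGG was held by 58.0% of the rises, against 38.2% and 49.5% in the same order. The shares were 21.7% against 15.7% and 14.3% for TATAAA, and 17.4% against 8.97% and 8.42% for TGANTCA. TGACGTCA was held by 3 rises (4.35%), against 2.03% and 2.65%. All motifs were read on both strands, and TGANTCA, TGACGTCA and the CArG box can match on both at the same place. A match is a description of these letters and not of a bound site.

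The called genes had shorter median spans than the tested genes. The median span from start to end of the gene was 8.07 kb for the 84 rises and 5.65 kb for the 11 falls, against 16.3 kb over the 21991 tested genes with a span (RefSeq, GRCm38.p6). Of the rises 48 (57.1%) and of the falls 8 (72.7%) were under 10 kb, where 37.9% of tested genes were. This is a description, with no test.

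Of the 11 falls 6 belonged to no list. The largest fall was that of Zfp273, a Krueppel-type zinc finger gene of unknown target, which was at 3.62, 3.34 and 3.61 in DMSO and at 2.80, 2.42 and 2.68 in LPS. It fell by 0.89 (SE 0.13, limma adjusted p = 0.00597), close to the lower end of the array's range, and it was the only named fall that kept its call in all 12 fits with 1 array left out. Of 336 measured zinc finger genes named Zfp, Zfp36 was the 1 that rose and Zfp273 the 1 that fell, and 204 were lower with a family median of -0.032. From these bulk values, fewer cells expressing a gene and less RNA per cell cannot be told apart. The promoter of Zfp273 is shown to set it beside those of the large rises. It lies at chr13:67813566-67813865, plus strand, and holds 1 TATAAA, in capitals, with no match to the kappaB consensus.
Zfp273: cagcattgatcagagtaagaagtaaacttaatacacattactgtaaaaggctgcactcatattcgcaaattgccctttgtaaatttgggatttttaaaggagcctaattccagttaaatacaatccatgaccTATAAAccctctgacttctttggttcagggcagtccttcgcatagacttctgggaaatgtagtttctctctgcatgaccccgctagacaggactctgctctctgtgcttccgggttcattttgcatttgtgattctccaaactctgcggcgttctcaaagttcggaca

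Gadd45g, a stress sensor that activates p38 and JNK kinases and restrains growth, was at 5.54, 5.63 and 5.59 in DMSO and at 5.03, 5.04 and 4.79 in LPS. It fell by 0.63 (SE 0.11, limma adjusted p = 0.0239). Arrdc2, an arrestin-domain gene of the FOXO and MondoA list, was at 7.08, 7.02 and 6.99 in DMSO and at 6.51, 6.63 and 6.63 in LPS, and fell by 0.44 (SE 0.08, limma adjusted p = 0.0181). It was the 1 fall among the 35 genes of that list, of which 23 were lower (median -0.053). Its relative Arrdc3 was at -0.37 and the cell cycle inhibitor gene Cdkn1a at 0.34, neither past the threshold (limma adjusted p = 0.497 and 0.424).

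A pair of falls encode enzymes that copy the mitochondrial genome. Polg2, the accessory subunit of the mitochondrial DNA polymerase, was at 6.44, 6.36 and 6.40 in DMSO and at 5.97, 5.72 and 5.77 in LPS, and fell by 0.58 (SE 0.11, limma adjusted p = 0.0278). Twnk (Twinkle), the helicase that opens the mitochondrial DNA for that polymerase, was at 7.56, 7.66 and 7.69 in DMSO and at 7.27, 7.24 and 7.35 in LPS, and fell by 0.35 (SE 0.07, limma adjusted p = 0.0388). Mrm3, which methylates mitochondrial ribosomal RNA, was at 7.29, 7.44 and 7.38 in DMSO and at 6.99, 7.06 and 6.94 in LPS, and fell by 0.37 (SE 0.07, limma adjusted p = 0.0441). The calls of Polg2, Twnk and Mrm3 held in 6, 2 and 2 of 12 fits with 1 array left out.

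Polg2 and Twnk were the 2 falls among 29 measured mitochondrial DNA replication and transcription factors, and 0 rose. Of the 29 genes 28 were lower, 8 of them with every LPS array below every DMSO array, and the median was -0.107. Of all genes 52.4% were lower and 9.42% were lower without overlap. Of genes with a mean of at least 5 these shares were 65.8% and 17.2%. The nuclease gene Exog was at -0.35, the transcription terminator gene Mterf1a at -0.33 and the mitochondrial topoisomerase gene Top1mt at -0.26, with limma adjusted p = 0.205, 0.752 and 0.435. The median deviation of the list from the DMSO mean was 0.007, -0.017 and 0 in the DMSO arrays and -0.117, -0.123 and -0.127 in the LPS arrays. The catalytic subunit gene Polg was at -0.18, the packaging factor gene Tfam at -0.12 and the RNA polymerase gene Polrmt at -0.03, none past the threshold (limma adjusted p = 0.517, 0.757 and 0.93).

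Most members of larger mitochondrial families were lower too, with 0 called by limma. At an unadjusted p under 0.05, 16 mitochondrial ribosomal protein genes, 12 oxidative phosphorylation genes and 3 cytosolic ribosomal protein genes were lower and 0 were higher. Of all 22180 genes, 1093 were lower and 908 higher at that threshold. Of 71 mitochondrial ribosomal protein genes 64 were lower, 36 without overlap, and the median was -0.13. In the LPS arrays the family median was -0.077, -0.113 and -0.15 relative to the DMSO mean, and in the DMSO arrays it was -0.023, 0.04 and -0.01. Of 76 oxidative phosphorylation genes 65 were lower, 22 without overlap, with a median of -0.1. Of 64 cytosolic ribosomal protein genes 50 were lower and 9 without overlap, with a median of -0.043, and the LPS and DMSO arrays overlapped in that median. Level moved with these shifts. Among the 9724 genes with a mean of at least 5, 65.8% were lower and 17.2% were lower without overlap, with a median of -0.04, whereas among the 12456 genes under 5, 41.9% were lower and 3.34% without overlap, with a median of 0.023. The median DMSO level was 7.22 for the mitochondrial DNA factors, 8.23 for the mitochondrial ribosomal proteins and 8.47 for oxidative phosphorylation, against 4.42 for all genes, and the part of signal level in their shifts was not tested.

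Snhg10, a long noncoding RNA that hosts a small nucleolar RNA, was at 7.63, 7.60 and 7.53 in DMSO and at 7.0, 7.09 and 7.21 in LPS, and fell by 0.49 (SE 0.08, limma adjusted p = 0.00853). It was the 1 fall among 29 snoRNA host and nuclear long noncoding RNA genes, of which 20 were lower (median -0.073), and Snhg5 was at -0.45 and Snhg20 at -0.27 (limma adjusted p = 0.187 and 0.346). The small nucleolar RNA genes themselves had a median of -0.257, with 56 of 73 lower, 22 without overlap and 0 called by limma. Of all genes 52.4% were lower and 9.42% lower without overlap, and of genes with a mean of at least 5, 65.8% and 17.2%. The median DMSO level of the family was 8.86. At an unadjusted p under 0.05, 28 of the family were lower and 3 higher, where 1093 and 908 of all 22180 genes were. The family median varied from array to array, at -0.253, -0.38 and -0.093 in LPS and at -0.08, 0.083 and 0.023 in DMSO.

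The remaining named falls were in no list. Cib1, a calcium- and integrin-binding protein gene, was at 6.28, 6.30 and 6.33 in DMSO and at 5.97, 5.95 and 5.89 in LPS, and fell by 0.37 (SE 0.06, limma adjusted p = 0.0088). Rad1, a subunit of the checkpoint clamp loaded at damaged DNA, was at 7.10, 7.02 and 7.02 in DMSO and at 6.71, 6.64 and 6.69 in LPS, and fell by 0.37 (SE 0.06, limma adjusted p = 0.0191), while a dimmer feature of Rad1 was at 0.13. Tmem203, an endoplasmic reticulum protein gene linked to calcium stores, was at 6.69, 6.66 and 6.64 in DMSO and at 6.43, 6.22 and 6.22 in LPS, and fell by 0.37 (SE 0.07, limma adjusted p = 0.0455). The remaining fall was an olfactory receptor gene near the bottom of the array's range.

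**Figure D4:**
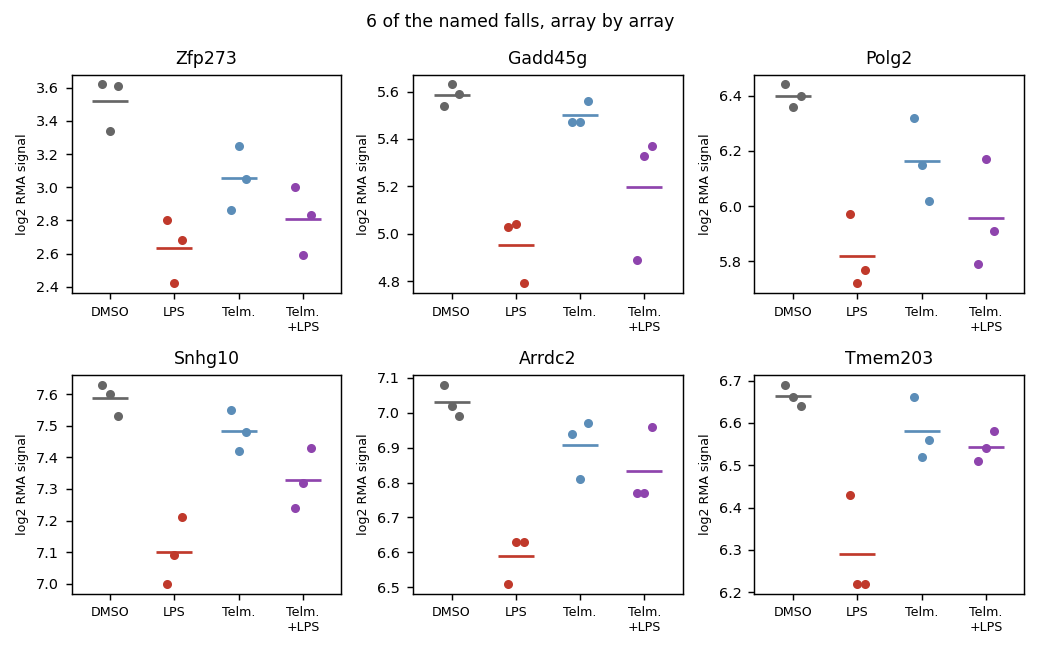
Points are single arrays and bars are means of 3 arrays, in log2 RMA signal, for 6 of the named falls. In each panel the 3 LPS arrays lie below the 3 DMSO arrays, and the telmisartan+LPS and telmisartan means lie closer together than the LPS and DMSO means. The y axes do not start at 0 and differ between panels.

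The number of falls depended on single arrays. It was 3, 4 and 2 without DMSO replicate 1, 2 and 3, 3 without LPS replicate 2, 24 when LPS replicate 3 was dropped and 19 when the first telmisartan+LPS array was. Testing only genes with a mean of at least 5 gave 45 falls, of which 9 were among the 11. The number of rises stayed between 63 and 86 with any 1 of the 12 arrays left out. Among the other named falls, the call held in 11 of the 12 such fits for Cib1, in 9 for Snhg10, in 7 for Arrdc2, in 6 each for Gadd45g and Rad1, and in 1 for Tmem203.

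Several other classes had 0 members called by limma at 1 h, where 0.379% of all genes rose and 0.0496% fell. At shares this low, 0 calls in lists of this size do not set a class apart. Among 34 homeostatic microglia genes 0 rose and 0 fell, and the median was 0.052, with Maf at 0.32 and Cd33 at 0.28 (limma adjusted p = 0.494 and 0.303). Their median DMSO level was 5.29. The 40 TGF-beta, BMP, Notch and Wnt genes (median 0.032), the 29 G1 cyclin and MYC partner genes (median -0.01), the 19 clock genes (median -0.027) and the 46 general transcription and chromatin genes (median 0.005) had 0 calls in either direction. Of 28 G2 and mitosis genes 23 were lower, with a median of -0.057 and 0 calls, and Cdc25b was at -0.25 and Cdc20 at -0.22 (limma adjusted p = 0.285 and 0.427). At an unadjusted p under 0.05, the G2 and mitosis genes had 6 lower and 0 higher, the homeostatic genes 5 higher and 0 lower, and the TGF-beta, BMP, Notch and Wnt genes 4 higher and 0 lower. The G1 genes had 2 higher and 0 lower, the clock genes 1 in each direction, and the general transcription genes 1 higher and 0 lower. Of all 22180 genes, 908 were higher and 1093 lower at the same unadjusted threshold.

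**Figure D5:**
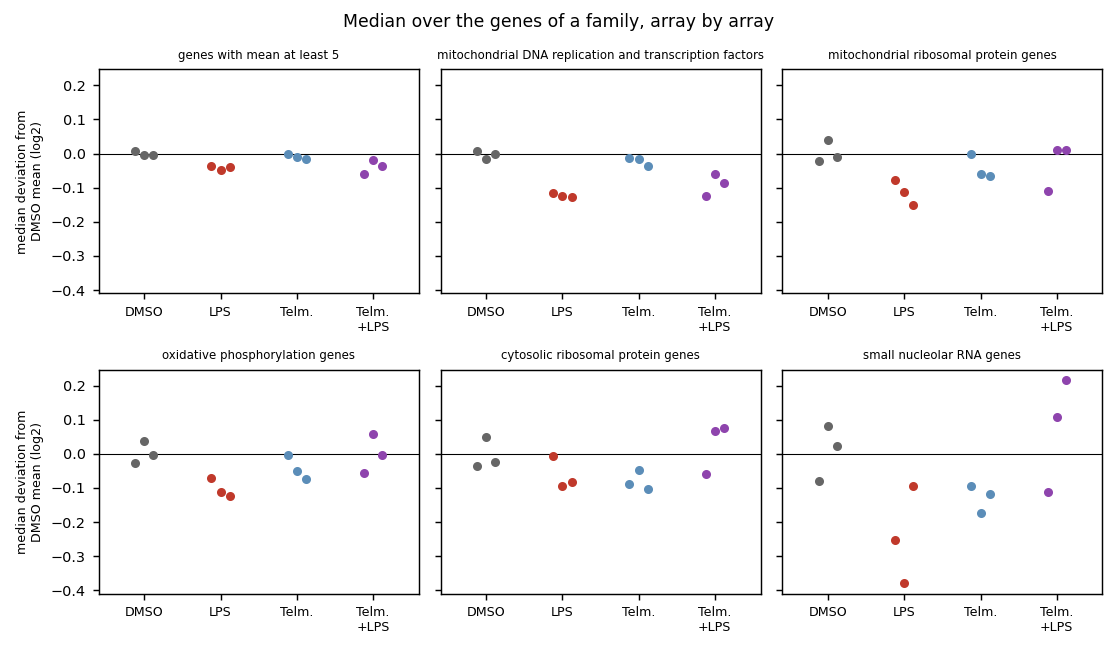
Each point is 1 array, placed by the median over a family's genes of the difference from the DMSO mean (log2), for genes with a mean of at least 5 and for 5 families. The mitochondrial DNA factors lie between -0.117 and -0.127 in LPS, and the small nucleolar RNA genes spread from -0.38 to -0.093 in LPS and from -0.113 to 0.217 in telmisartan+LPS.

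The LPS response was measured a second time in arrays that share none with the first comparison, as telmisartan+LPS minus telmisartan. Those arrays carry the drug in both groups and were normalized together with the rest. In this comparison 55 genes rose, 0.248% of those tested, and 3 fell at a limma adjusted p under 0.05. Of the 84 rises found without the drug 81 had the same sign and 48 were called again, and of the 11 falls 10 had the same sign and 0 were called again, where 55.0% of all genes had the same sign in both comparisons. Without telmisartan+LPS replicate 3, the array that stood apart, 92 of the 95 called genes kept their sign, against 91 with it. The median change of the rises was 0.77 without the drug and 0.56 with it, and that of the falls was -0.44 and -0.1. The genes were picked on the comparison without the drug, so the 2 medians are not on an equal footing. No gene passed the test of the difference between the 2 LPS responses (limma, 0 calls, smallest adjusted p = 0.187, and 1725 genes at an unadjusted p under 0.05).

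Array by array, 72 of the 84 rises had all 6 LPS-treated arrays above all 6 others, which 0.794% of all genes had, and 3 of the 11 falls, Gadd45g, Rad1 and Twnk, had all 6 below, which 0.649% of all genes had. Through their selection the called genes already had the LPS and DMSO arrays apart, so both counts are a description. Among rises, the changes with the drug were 2.10 for Tnfaip3, 1.43 for Ccrl2, 1.28 for Zfp36, 1.32 for Socs3 and 1.05 for Nfkbiz, each called (limma adjusted p = 1.01e-08, 1.04e-05, 1.02e-05, 5.03e-06 and 1.04e-05). Mir221 was called again at 1.27 (limma adjusted p = 0.000162) and Mir222 was at 0.89 (limma adjusted p = 0.0581). The opposite sign appeared for Mir329 at -0.17, Cxcl11 at -0.06 and a vomeronasal receptor gene at -0.02. Mir329 was at 5.04, 5.18 and 5.39 with telmisartan alone, above its DMSO arrays.

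Among falls, the change with the drug was -0.25 for Zfp273, -0.30 for Gadd45g, -0.21 for Polg2, -0.15 for Snhg10, -0.07 for Arrdc2 and 0.17 for Cib1 (limma adjusted p = 0.437, 0.277, 0.41, 0.396, 0.71 and 0.237). For 7 of the 11 falls, among them Zfp273, Polg2, Cib1 and Twnk, the 3 DMSO arrays lay above all 9 others, telmisartan alone included, which 0.672% of all genes had. The falls were picked for DMSO arrays above LPS arrays, so the count is a description. Cib1 was at 6.00 ± 0.020 (SD, n = 3) with telmisartan alone and 6.17 ± 0.0058 (SD, n = 3) with telmisartan and LPS, and Zfp273 was at 3.05 ± 0.20 (SD, n = 3) and 2.81 ± 0.21 (SD, n = 3). The family medians also differed in this comparison, at -0.09 for the mitochondrial DNA factors, 0.017 for mitochondrial ribosomal proteins, 0.057 for oxidative phosphorylation and 0.193 for small nucleolar RNAs, against 0.013 for all genes. The difference between the 2 comparisons was not tested for these families.

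Outside these genes, the 17824 features with several symbols or none held 9 rises (0.0505%) and 0 falls.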

How the data were processed

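RNA from 12 arrays, 3 in each of 4 groups, was profiled with whole-transcript labelling. The deposited values are log2 RMA signals made by the authors, per the file headers, in Expression Console (its engine numbered 1.4.1.46), with background correction and quantile normalization over the 12 arrays. The file headers and a labelling protocol name different versions of the mouse gene array, and the headers were followed. The series matrix differed from the summary table by at most 0.005 (log2) and served as an alternative. The tables held 0 columns of other samples.

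Of 41345 features, 23521 had 1 gene symbol in the platform annotation, 1820 several and 16004 none. Symbols were updated through Entrez identifiers (23328 matched, 193 kept) to RefSeq names of GRCm38.p6, and the feature with the highest mean stood for each of 22180 genes, 1082 of which had more than 1. Group means of all 12 arrays were fitted with limma 3.58.1 in R 4.3.3 (lmFit and eBayes, no filter, no minimum fold, residual df 8), and calls were made below 0.05 after Benjamini-Hochberg adjustment over all genes. An array has no read depth, and the number of arrays limits precision. The median residual SD was 0.117. The fit was tested on simulated data.

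The gene lists, the naming rule and the genes described were chosen with earlier results of these data known. Every called gene could be named except predicted gene models, small nucleolar RNAs and olfactory or vomeronasal receptors, with up to 3 uncalled members per list by size of change, and the list members named beyond these (Fos, Fosb, Egr1, Nr4a1, Ier2, Rela, Nfkb2, Bcl3, Nfkbib, Nfkbil1, Nfkbid, Polg, Tfam, Polrmt) were picked after their values were seen. Per-array values were due for the 6 largest rises outside cytokines, the 6 largest falls and called microRNA genes, and those of other genes were added after their values were seen. Of 478 measured microRNA genes 426 had an entry in the RefSeq sequence table. Promoter sequences were those of the 2 largest rises outside cytokines and of the largest named fall with an entry. Alternatives were the series matrix, the 6 arrays alone, trend and robust options, array weights, dim genes (mean under 5) left out, the mean over features, median centring, repeated quantile normalization, a stricter threshold, a minimum fold of 1.2 and each array left out.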

Additional observations from a re-analysis of the deposited data

Results flagged for a closer look

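Features with several platform symbols or none were left out of the genes and tested apart from them. Of 17824 such features 9 rose with LPS (0.0505%, limma adjusted p under 0.05) and 0 fell. They are listed here because they are a signal in data that the gene comparisons do not use. The largest went from 5.09 to 7.36, a change of 2.27 (SE 0.14, limma adjusted p = 0.000154), and the smallest change was 0.78 (SE 0.10, limma adjusted p = 0.0345). A pair of features had identical values at 1.68 and another pair at 1.36, so the 9 features are not 9 separate transcripts. Single values within a group were not searched for outliers, since each group held 3 arrays.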

How the results depend on the processing

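The number of rises was between 73 and 105 with the series matrix, the 6 arrays alone, trend and robust options, array weights, dim genes left out, feature means, median centring and repeated normalization, 64 at an adjusted p under 0.01, 63 to 86 with 1 array left out, and 35 with a minimum fold of 1.2. The number of falls was less stable. It was 7 with the 6 arrays alone (5 of them among the 11), 23 with trend and robust options, 20 with array weights, 45 with dim genes left out, 3 at an adjusted p under 0.01, 0 with a minimum fold of 1.2 (1093 lower genes at an unadjusted p under 0.05 without it), and 2 to 24 with 1 array left out. Leaving out dim genes tests 9724 in place of 22180 genes, and the causes of the other differences were not tested. Of 93 named called genes 59 kept their call in every setting run except the minimum fold, and none changed sign. Of 73 named genes without a call 14 passed in at least 1 setting. Signs kept in the telmisartan arrays numbered 90 to 92 with 1 array left out of 95, and 78 of the 80 still measured with dim genes left out. The features without 1 symbol that rose numbered 7 to 13. No paired analysis was possible because the titles carry a single running number over all 12 arrays and no replicate number that groups share.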

Other observations

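With genes of a mean under 5 left out before the fit, 45 genes fell. A few of these were picked here after their values were seen, and no theme of the 45 was tested. Among those that encode mitochondrial proteins were Hars2, the mitochondrial histidyl-tRNA synthetase, at -0.40, Mtrf1, a mitochondrial release factor, at -0.32, Coa7 and Surf1, assembly factors of cytochrome oxidase, at -0.32 and -0.26, and Uqcc3, an assembly factor of complex III, at -0.40. In that setting the limma adjusted p was 0.0349, 0.032, 0.0347, 0.0389 and 0.0347, and with all genes it was 0.12, 0.13, 0.138, 0.181 and 0.12. Their changes in telmisartan-treated cells were -0.06, -0.08, 0.01, -0.10 and 0.08. The same setting called 4 small nucleolar RNA genes as falls, led by Snord49b at -1.17, which was at 0.26 in telmisartan-treated cells (limma adjusted p = 0.0351 in that setting and 0.0898 with all genes). Osgin1, an oxidative stress gene, was at -0.47 (limma adjusted p = 0.0152 in that setting and 0.0543 with all genes), and the sirtuin gene Sirt7 was at -0.40 (limma adjusted p = 0.0328 and 0.116).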
